A study of Mus musculus with 16 samples.

Results

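Retinal astrocyte genes were followed here through 7 members, Pax2, Pdgfra, Pdgfa, S100b, Nr2e1, Aldh1l1 and Fabp7. Every probe whose gene name on the array was the current or an older symbol of a member was taken, whatever its values. This gave 11 of 43426 probes, and all 11 passed the filter on dim probes, which kept 39788. Pdgfa, Pdgfra, S100b and Nr2e1 had a pair of probes each, and Aldh1l1, Fabp7 and Pax2 had a single probe.

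Whole retinas of C57Bl6 mice were measured 24 h after intravitreal delivery of VEGF-A (1 µg, n = 5), Dll4-Fc (4 µg, n = 4), VEGF Trap (n = 3) or hFc, the Fc part alone (4 µg, n = 4). Pups given VEGF-A, Dll4-Fc or hFc were 8 days old, and the labels give neither dose nor age for VEGF Trap. VEGF-A is the growth factor that drives retinal vessels, VEGF Trap is a decoy receptor that binds it, and Dll4-Fc is a soluble form of the Notch ligand Dll4 joined to the Fc part. VEGF-A and hFc were thus given in unequal amounts. The Cy3 channel held the sample and the Cy5 channel a common pool of RNA from the experiment, and values below are log2 of sample over that pool. The labels name no genetic change and do not say which samples are separate animals, so p-values measure the spread between samples, which may be technical.

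Astrocytes are not born in the retina. They enter it from the optic nerve head and spread over its inner surface as a network along which the first vessels grow. Neurons of the inner retina, ganglion cells above all, release PDGF-A, which acts on the PDGF receptor alpha of astrocytes and drives their division and spread, and astrocytes that lack oxygen release VEGF-A ahead of the vessels. Pax2 is a paired-box transcription factor of astrocytes and their precursors. Nr2e1 (Tlx) is an orphan nuclear receptor needed for the astrocyte network, and retinal progenitors and Müller glia use it too. Fabp7 is a fatty acid carrier of radial glia and immature astrocytes, while S100b, a calcium-binding protein, and Aldh1l1, an enzyme of folate metabolism, mark more mature ones. Pdgfa is thus the ligand of the pathway and not a marker of astrocytes. No member is taken here to be found in astrocytes alone.

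The probes are 60 bases long. Coordinates below are those in the scanner files, for a genome build that the sources used here do not name. The sequences shown belong to 1 probe of each gene that rose after VEGF-A, Pdgfa (chr5:137951288-137951347, minus strand) and Aldh1l1 (chr6:90677026-90677586, plus strand), and to the brighter probe of S100b (chr10:75915615-75915674, plus strand), the gene that varied most within VEGF-A. Capitals in S100b mark 36 bases whose reading frame fits the letter pattern of a calcium-binding loop of the EF-hand kind, the feature that gives this protein family its function.
Pdgfa A_51_P370099: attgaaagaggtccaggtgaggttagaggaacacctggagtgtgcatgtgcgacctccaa
Aldh1l1 A_51_P504546: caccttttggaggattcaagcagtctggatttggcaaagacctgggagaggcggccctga
S100b A_51_P208083: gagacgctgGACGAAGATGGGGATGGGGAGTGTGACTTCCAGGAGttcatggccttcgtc
The second Pdgfa probe, A_51_P370090, lies at chr5:137949185-137949244 and the second S100b probe, A_51_P468260, at chr10:75916689-75916748. The other probes lie at chr10:42372643-42372670 and chr10:42372693-42372752 (Nr2e1), chr10:57609720-57609779 (Fabp7), chr19:44654758-44654816 (Pax2), and chr5:74616116-74616175 and chr5:74581841-74581900 (Pdgfra). The first Nr2e1 interval, that of A_51_P503042, and the Pax2 interval are shorter than 60 bases, and that of Aldh1l1 is longer.

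On the arrays as a whole, 84.9 to 91.0% of spots were well above background in Cy3. The hFc arrays filled 1 slide and the Dll4-Fc arrays a second, so slide and treatment cannot be told apart in any comparison with hFc, while VEGF-A 1 and 2 shared a slide with VEGF Trap 1 and 2, and VEGF-A 3, 4 and 5 with VEGF Trap 3. The scanner software marked 12 to 213 spots as outliers on each array of the 3 treated groups and 2350 to 2599 on each hFc array. These marks crowded a stretch of rows, where Fabp7 was the only member. A probe was called where its adjusted p in the limma fit was under 0.05. The share of all probes called was 8.99% in VEGF-A against hFc, 4.02% in Dll4-Fc against hFc, 2.69% in VEGF Trap against hFc and 16.9% in VEGF-A against VEGF Trap. These comparisons share arrays and are not independent of each other. The title codes of hFc 1 and 2 begin alike, as do those of VEGF-A 4 and VEGF Trap 3, and the labels do not explain the code. All 11 member probes were well above background on all 16 arrays, and none was saturated. In whole retina, fewer cells of a type and less RNA per cell cannot be told apart.

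Pdgfa and Aldh1l1 were higher after VEGF-A than in hFc, Nr2e1 was lower after Dll4-Fc, and Fabp7 had its lowest values after VEGF Trap. Of the 11 probes, 3 rose and 0 fell in VEGF-A against hFc, beside 5.68% and 3.3% of all probes. In Dll4-Fc against hFc 0 rose and 1 fell, beside 2.65% and 1.37%. None of the 11 was called in VEGF Trap against hFc, where 0.903% of all probes rose and 1.79% fell, although 2 of them, Aldh1l1 and Pax2, did not overlap between the groups, as was true of 22.5% of all probes, and 3 had an unadjusted p under 0.05 by limma (Fabp7 0.00243, Aldh1l1 0.0297 and Pax2 0.0457), as did 19.5% of all probes. For Fabp7 only 1 hFc array remained, so the SE and p of each of its comparisons with hFc take their spread from the other groups. In VEGF-A against VEGF Trap 3 rose and 0 fell, beside 9.76% and 7.11%. The groups did not overlap for 3 probes in VEGF-A against hFc, beside 13.8% of all probes, and for 3 in VEGF-A against VEGF Trap, beside 24.0%. The median difference of the 11 probes was 0.06, −0.04, 0.04 and 0.20 in these 4 comparisons, beside −0.04, −0.03, −0.02 and −0.04 over all probes. A test over all 4 groups at once called 4 of the 11 probes, both of Pdgfa, that of Aldh1l1 and 1 of Nr2e1, beside 18.5% of all probes.

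**Figure D1:**
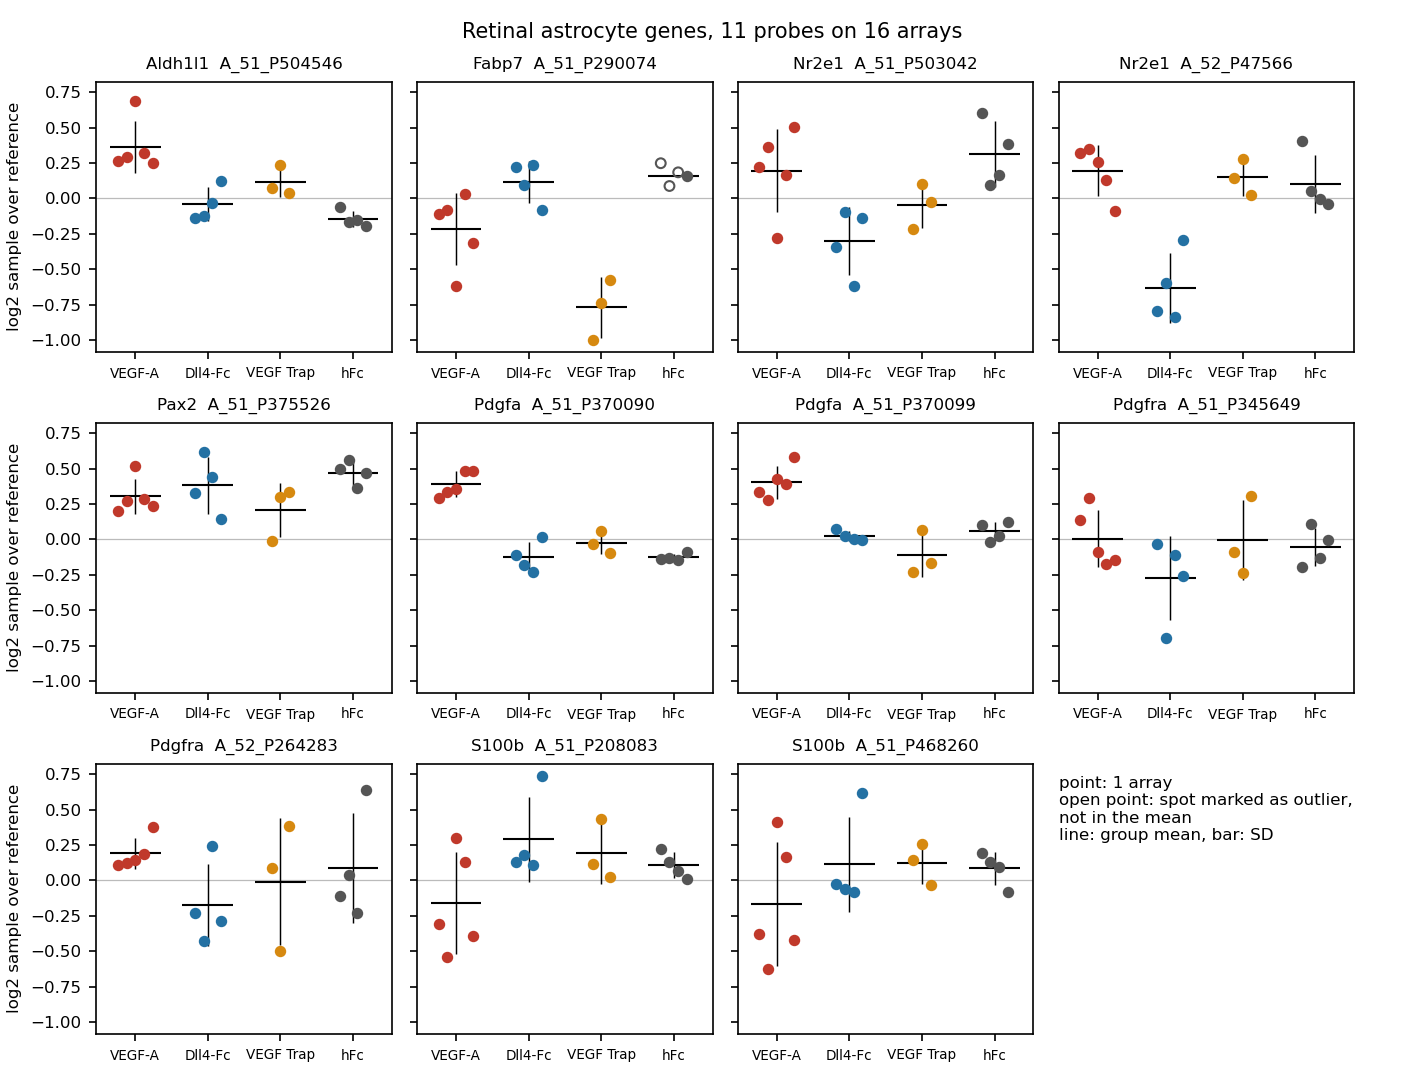
Each panel shows 1 probe, with log2 of sample over reference on the vertical axis and the groups VEGF-A, Dll4-Fc, VEGF Trap and hFc from left to right. Points are arrays, lines are group means and bars are SDs, and open points are spots marked as outliers, which are not in the mean. All 5 VEGF-A arrays lie above all 4 hFc arrays for both Pdgfa probes and for Aldh1l1, all 4 Dll4-Fc arrays lie below all 4 hFc arrays for both Nr2e1 probes, and Fabp7 is lowest on the VEGF Trap arrays, with a VEGF-A array at −0.62.

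The ligand Pdgfa changed with VEGF-A on both of its probes. On the brighter, A_51_P370090, the VEGF-A arrays gave 0.29, 0.33, 0.35, 0.49 and 0.49, the Dll4-Fc arrays −0.11, −0.18, −0.23 and 0.02, the VEGF Trap arrays −0.03, 0.06 and −0.10, and the hFc arrays −0.14, −0.13, −0.15 and −0.09. All 5 VEGF-A arrays were high, and the other 3 groups overlapped. Means were 0.39 ± 0.09 in VEGF-A, −0.02 ± 0.08 in VEGF Trap, −0.13 ± 0.11 in Dll4-Fc and −0.13 ± 0.02 in hFc (SD, n = 5, 3, 4 and 4). The difference of VEGF-A from hFc was 0.52 (SE 0.07, adjusted p = 0.000119), a 1.43-fold higher ratio, and that from VEGF Trap was 0.41 (SE 0.08, adjusted p = 0.00149).

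The second Pdgfa probe, A_51_P370099, gave 0.33, 0.28, 0.43, 0.39 and 0.58 after VEGF-A, 0.07, 0.02, 0.00 and −0.00 after Dll4-Fc, −0.23, 0.07 and −0.16 after VEGF Trap, and 0.10, −0.02, 0.02 and 0.12 in hFc. The VEGF-A arrays were again above every other array. VEGF-A exceeded hFc by 0.35 (SE 0.08, adjusted p = 0.00996) and VEGF Trap by 0.51 (SE 0.08, adjusted p = 0.000655). Over the 16 arrays the probes differed by at most 0.24, with a median of 0.10.

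VEGF-A and VEGF Trap shared slides, which allowed Pdgfa to be compared within them. On the slide with VEGF-A 1 and 2, the differences from VEGF Trap were 0.30 (A_51_P370090, adjusted p = 0.0719) and 0.38 (A_51_P370099, adjusted p = 0.0404), and on the slide with VEGF-A 3, 4 and 5 they were 0.54 (adjusted p = 0.00852) and 0.63 (adjusted p = 0.00660). The second of these slides holds a single VEGF Trap array, which was assumed to vary like the other groups. With slide as a block they were 0.40 (adjusted p = 0.0297) and 0.49 (adjusted p = 0.0301). The direction was thus the same on both slides and for both probes, and 1 of these 6 values missed the threshold. Against hFc, A_51_P370090 passed the threshold under all 28 other settings tried, between 0.35 and 0.57, and A_51_P370099 under 25 of them, between 0.24 and 0.41. It missed it with another background correction and normalization (0.24, adjusted p = 0.0560), with the Cy3 channel alone (0.35, adjusted p = 0.0757) and with only the VEGF-A arrays of the first of these slides (0.25, adjusted p = 0.114).

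Neither Dll4-Fc nor VEGF Trap gave a call for Pdgfa against hFc. The 95% intervals for Dll4-Fc were −0.16 to 0.16 on A_51_P370090 and −0.21 to 0.14 on A_51_P370099. Those for VEGF Trap were −0.07 to 0.27 and −0.35 to 0.03, with means of 0.10 and −0.16 that had opposite signs.

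Pdgfra, the receptor for this ligand on astrocytes, was not called in any comparison. Its brighter probe, A_51_P345649, gave 0.14, 0.29, −0.09, −0.17 and −0.14 after VEGF-A, −0.03, −0.70, −0.11 and −0.25 after Dll4-Fc, −0.09, −0.24 and 0.31 after VEGF Trap, and −0.20, 0.11, −0.13 and −0.00 in hFc. All 4 groups overlapped, and the lowest value, −0.70, was that of 1 Dll4-Fc array. VEGF-A differed from hFc by 0.06 (95% interval −0.26 to 0.38) on this probe. The second probe, A_52_P264283, had processed Cy3 signals of 12.3 to 47.9 units, against 740.0 to 2323 for the first, and its values ran from −0.50 to 0.64. The probes differed by up to 0.64 on an array, more than any group means of either probe differed. The lowest group mean on both was that of Dll4-Fc, at differences from hFc of −0.22 (95% interval −0.56 to 0.12) and −0.26 (95% interval −0.70 to 0.18).

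Of the 5 other genes of the pathway, 3 were called in at least 1 comparison. Pdgfb, the ligand that endothelial cells use to recruit pericytes, rose by 2.04 (SE 0.11, adjusted p = 5.2e-08) in VEGF-A against hFc, fell by 0.75 (SE 0.14, adjusted p = 0.0199) in VEGF Trap against hFc and differed by 2.79 (SE 0.13, adjusted p = 6.58e-09) between VEGF-A and VEGF Trap. In Dll4-Fc against hFc it differed by 0.22 (adjusted p = 0.513). Pdgfc, another ligand of the alpha receptor, fell by 1.03 after Dll4-Fc (SE 0.08, adjusted p = 1.48e-06) and by 0.38 after VEGF Trap (SE 0.08, adjusted p = 0.0291), and differed by −0.22 after VEGF-A (adjusted p = 0.0896). Pdgfrl, a receptor-like gene, fell by 1.17 after Dll4-Fc (adjusted p = 0.000622) and by 0.63 after VEGF-A (adjusted p = 0.0231). The ligand Pdgfd and Pdgfrb, the receptor of pericytes, were called in none of the 4 comparisons. Genes of endothelium, a source of Pdgfb, were counted beside it. In this list 9 of 12 rose and 1 fell in VEGF-A against hFc, Mmrn2 by 1.59 upward and Cldn5, a tight junction gene, by 0.33 downward. In VEGF Trap against hFc 0 rose and 10 fell, Tie1, an endothelial receptor, by 0.79. In Dll4-Fc against hFc, where Pdgfb was not called, 5 rose and 0 fell, Egfl7 by 0.52. Of all genes, 5.68% rose and 3.78% fell in VEGF-A against hFc. The shares were 1.01% and 1.89% in VEGF Trap against hFc, and 2.92% and 1.43% in Dll4-Fc against hFc. Ganglion cells are a source of Pdgfa, as are other neurons of the inner retina. Of 11 ganglion cell genes, 0 rose and 1, the transcription factor Pou4f2, fell in VEGF-A against hFc (−0.85), with a median difference of −0.50. Their mean was −0.80 and −0.72 on VEGF-A 1 and 2, −0.01, 0.06 and 0.13 on VEGF-A 3, 4 and 5, and 0.06 to 0.19 on the hFc arrays, so that the low values were those of VEGF-A 1 and 2. The part of these cells in the PDGF values was not tested.

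**Figure D2:**
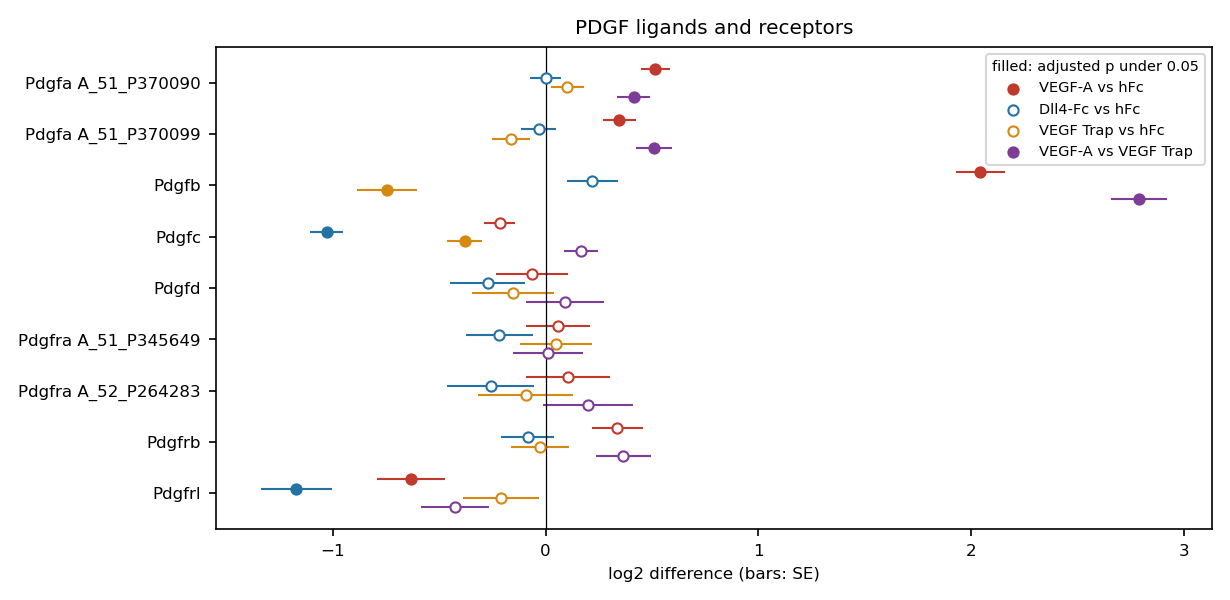
Rows are PDGF ligands and then receptors, with both probes of the members, and the horizontal axis is the log2 difference in each of the 4 comparisons, with bars of 1 SE. Filled points passed the test. The rise of Pdgfa after VEGF-A (0.52 and 0.35) is small beside that of Pdgfb (2.04), and both Pdgfra probes lie near 0 in VEGF-A against hFc.

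Aldh1l1 was the other member that was higher after VEGF-A. Its probe gave 0.27, 0.29, 0.69, 0.32 and 0.25 after VEGF-A, −0.14, −0.12, −0.03 and 0.12 after Dll4-Fc, 0.08, 0.23 and 0.04 after VEGF Trap, and −0.06, −0.16, −0.15 and −0.19 in hFc. The 5 VEGF-A arrays were above all others, VEGF Trap and Dll4-Fc overlapped, and all hFc arrays were below all VEGF Trap arrays. Group means were 0.36 ± 0.18 in VEGF-A, 0.12 ± 0.10 in VEGF Trap, −0.04 ± 0.12 in Dll4-Fc and −0.14 ± 0.06 in hFc (SD, n = 5, 3, 4 and 4). VEGF-A exceeded hFc by 0.51 (SE 0.09, adjusted p = 0.00229), a 1.42-fold higher ratio.

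The Aldh1l1 rise over hFc passed the threshold under all 28 other settings tried, between 0.42 and 0.56. All of these compare with the slide of hFc. The rise was 0.42 (adjusted p = 0.00163) without VEGF-A 3, whose 0.69 stood apart. VEGF-A against VEGF Trap gave 0.25 (SE 0.10, adjusted p = 0.115) and VEGF Trap against hFc 0.26 (SE 0.11, adjusted p = 0.203), neither of them called.

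S100b, the other gene of mature astrocytes, was not called in any comparison but varied most within VEGF-A. On A_51_P208083 the VEGF-A arrays gave −0.31, −0.54, 0.30, 0.13 and −0.39, the Dll4-Fc arrays 0.13, 0.18, 0.11 and 0.74, the VEGF Trap arrays 0.12, 0.43 and 0.02, and the hFc arrays 0.22, 0.13, 0.07 and 0.01. Within VEGF-A, arrays 1, 2 and 5 were below every array of the other groups, and arrays 3 and 4 were not. The SD was 0.36 in VEGF-A, 0.30 in Dll4-Fc, 0.22 in VEGF Trap and 0.09 in hFc.

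The second S100b probe, A_51_P468260, gave −0.38, −0.63, 0.42, 0.17 and −0.42 after VEGF-A, −0.02, −0.06, −0.08 and 0.61 after Dll4-Fc, 0.14, 0.26 and −0.03 after VEGF Trap, and 0.19, 0.13, 0.10 and −0.08 in hFc. It set the same arrays apart, and the probes differed by a median of 0.08 per array. VEGF-A differed from hFc by −0.27 (95% interval −0.64 to 0.10, adjusted p = 0.405) and −0.25 (95% interval −0.68 to 0.17, adjusted p = 0.505). VEGF-A 5 shared its slide with VEGF-A 3 and 4. Within the slide of VEGF-A 1 and 2 the differences from VEGF Trap were −0.70 on both probes (adjusted p = 0.0884 and 0.122), and within the other slide −0.01 and 0.09 (adjusted p = 0.994 and 0.903).

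**Figure D3:**
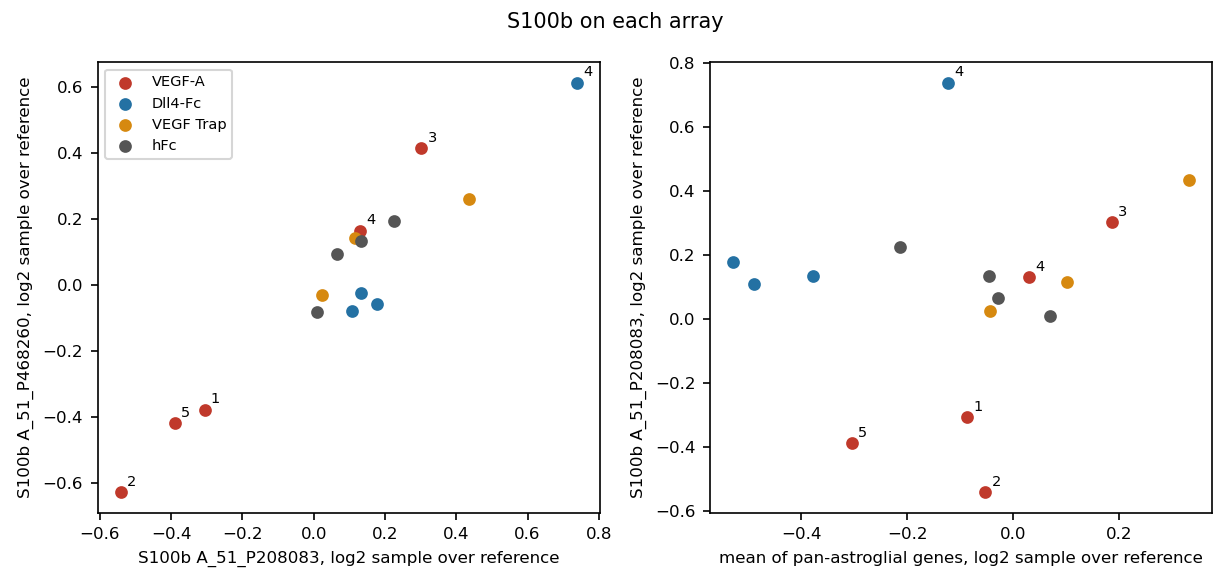
Left, each array is placed by the log2 of sample over reference of both S100b probes. Right, the probe A_51_P208083 is set against the mean of 17 pan-astroglial genes measured on every array, and numbers name the 5 VEGF-A arrays and Dll4-Fc 4. VEGF-A 1, 2 and 5 lie below all other arrays on both probes, and Dll4-Fc 4 has the highest S100b of all 16 arrays.

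VEGF-A 3 and Dll4-Fc 4 each held the highest or lowest value of their group for several members. VEGF-A 3 had the highest value of its group for S100b on both probes, Aldh1l1 (0.69) and Pax2 (0.52), and the lowest for Fabp7 (−0.62) and for Nr2e1 on A_51_P503042 (−0.28). On that array the mean of 17 pan-astroglial genes was 0.19, against −0.31 to 0.03 on the other VEGF-A arrays, and that of 8 retinal progenitor genes was −0.45, against −0.02 to 0.09. Dll4-Fc 4 had the highest value of its group for S100b on both probes, Aldh1l1 (0.12) and Nr2e1 on A_52_P47566 (−0.30), and the lowest for Fabp7 (−0.08) and Pax2 (0.14). Its pan-astroglial mean was −0.12, against −0.53 to −0.38 on the other Dll4-Fc arrays, and its progenitor mean −0.52, against −0.37 to −0.20. VEGF-A 1 and 2, low for S100b, were also the arrays with low ganglion cell genes, and VEGF-A 5, low for S100b too, was not. The pan-astroglial mean was −0.09, −0.05 and −0.31 on VEGF-A 1, 2 and 5, below the 0.19 and 0.03 of VEGF-A 3 and 4. The Dll4-Fc arrays, at −0.53 to −0.12 for that mean, were above VEGF-A 1, 2 and 5 on both S100b probes. The part of these differences between arrays in the members' values was not tested.

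Nr2e1 was lower after Dll4-Fc. Its brighter probe, A_52_P47566, gave −0.79, −0.60, −0.84 and −0.30 after Dll4-Fc, 0.32, 0.35, 0.26, 0.13 and −0.09 after VEGF-A, 0.15, 0.28 and 0.02 after VEGF Trap, and 0.40, 0.06, −0.00 and −0.04 in hFc. All 4 Dll4-Fc arrays were below all 12 others, and the remaining 3 groups overlapped. Means were −0.63 ± 0.25 in Dll4-Fc, 0.19 ± 0.18 in VEGF-A, 0.15 ± 0.13 in VEGF Trap and 0.10 ± 0.20 in hFc (SD, n = 4, 5, 3 and 4). The difference of Dll4-Fc from hFc was −0.73 (SE 0.14, adjusted p = 0.00442), and it passed the threshold under all 26 other settings tried, between −0.96 and −0.63.

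On the second Nr2e1 probe, A_51_P503042, Dll4-Fc arrays gave −0.34, −0.09, −0.62 and −0.14, VEGF-A arrays 0.22, 0.37, −0.28, 0.17 and 0.51, VEGF Trap arrays −0.21, 0.10 and −0.03, and hFc arrays 0.61, 0.09, 0.17 and 0.39. Dll4-Fc and hFc did not overlap on either probe, as on 9.8% of all probes. The difference on this probe was −0.61 (SE 0.17, adjusted p = 0.0587), which missed the threshold here and passed it under 4 of the 26 settings, with adjusted p between 0.00453 and 0.175 over all of them. The probes differed by up to 0.60 on an array, more than those of Pdgfa or S100b. VEGF-A and VEGF Trap were not called against hFc on either probe, at differences of −0.12 and −0.36 on A_51_P503042 and 0.09 and 0.05 on A_52_P47566.

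Markers of other cells that use Nr2e1 moved in the same comparison. Of 12 Müller glia genes, 0 rose and 11 fell in Dll4-Fc against hFc, with a median of −1.15, beside 2.92% and 1.43% of all genes. The mean of 11 of them ran from −1.41 to −0.96 on Dll4-Fc arrays and from 0.13 to 0.24 on hFc arrays, and Abca8a, a lipid transporter, fell by 3.63. The mean of 8 retinal progenitor genes ran from −0.52 to −0.20 on Dll4-Fc arrays and from 0.05 to 0.22 on hFc arrays. Of 12 genes listed for the oligodendrocyte lineage, which also uses Pdgfra, 3 rose and 0 fell, Olig2 by 2.15. The median difference of these 12 genes was 0.06. Which cells of the retina gave the values of these lists was not measured. Their part in the Nr2e1 and Pdgfra values was not tested.

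By the root mean square difference over the 16 arrays, each probe centred on its own mean, the genes nearest to Nr2e1 (A_52_P47566) among 17286 were Sphk1 (0.13), Prdx6 (0.14) and Prelp (0.15), where the median gene was at 0.44. Their differences in Dll4-Fc against hFc, which the choice by likeness fixes, were −0.87, −0.70 and −0.77. Nearest to Pdgfa (A_51_P370090) were Picalm (0.10), Kcnmb4 (0.10) and Pgm3 (0.10), where the median gene was at 0.33. Their differences in VEGF-A against hFc, fixed by the choice in the same way, were 0.37, 0.52 and 0.38. Fabp7 had too few arrays without an outlier mark for this measure.

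Fabp7 had its lowest values after VEGF Trap. The VEGF Trap arrays gave −1.0, −0.74 and −0.57, the VEGF-A arrays −0.11, −0.08, −0.62, 0.03 and −0.31, and the Dll4-Fc arrays 0.22, 0.09, 0.23 and −0.08. Of the hFc arrays, hFc 4 gave 0.16, and the spots of hFc 1, 2 and 3, at 0.25, 0.09 and 0.18, were marked as outliers and left out. VEGF Trap overlapped with VEGF-A through VEGF-A 3 alone and lay below all Dll4-Fc and hFc values, marked or not.

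Against the single hFc array left, which was assumed to vary like the other groups, VEGF Trap differed by −0.93 (SE 0.24, adjusted p = 0.0666). With the marked spots kept, the difference was −0.94 (adjusted p = 0.00374, 4 hFc arrays). VEGF-A against VEGF Trap gave 0.55 (SE 0.15, adjusted p = 0.0276), a call that was lost under 9 of 29 other settings. With slide as a block it was 0.56 (adjusted p = 0.0915), on the slide of VEGF-A 1 and 2 it was 0.77 (adjusted p = 0.0374), and on the other slide 0.27 (adjusted p = 0.520). The call was also lost without VEGF-A 1 (0.52, adjusted p = 0.0520), VEGF-A 2 (0.52, 0.0539), VEGF-A 4 (0.49, 0.0615), VEGF Trap 1 (0.44, 0.135) or VEGF Trap 2 (0.57, 0.0622), with the Cy3 channel alone (0.50, 0.0783) and in a fit of these 8 arrays without the block (0.55, 0.0639). The direction held under all 29. VEGF-A against hFc gave −0.37 (adjusted p = 0.376) and Dll4-Fc against hFc −0.04 (adjusted p = 0.976).

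Pax2, the transcription factor of the astrocyte lineage, was the dimmest single-probe member, with processed Cy3 signals of 39.4 to 73.7 units. Its probe gave 0.20, 0.27, 0.52, 0.29 and 0.24 after VEGF-A, 0.33, 0.62, 0.44 and 0.14 after Dll4-Fc, −0.01, 0.30 and 0.34 after VEGF Trap, and 0.49, 0.56, 0.36 and 0.47 in hFc. From the lowest, group means were 0.21 ± 0.19 after VEGF Trap, 0.30 ± 0.12 after VEGF-A, 0.38 ± 0.20 after Dll4-Fc and 0.47 ± 0.08 in hFc (SD, n = 3, 5, 4 and 4), and each group overlapped with its neighbour in this order. Against hFc the differences were −0.17 for VEGF-A (95% interval −0.39 to 0.06), −0.09 for Dll4-Fc (95% interval −0.32 to 0.15) and −0.26 for VEGF Trap (95% interval −0.51 to −0.01, adjusted p = 0.246). None was called. All 16 values but 1 were above 0. Every sample was in Cy3 and the pool in Cy5, so dye and sample cannot be told apart in this level.

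**Figure D4:**
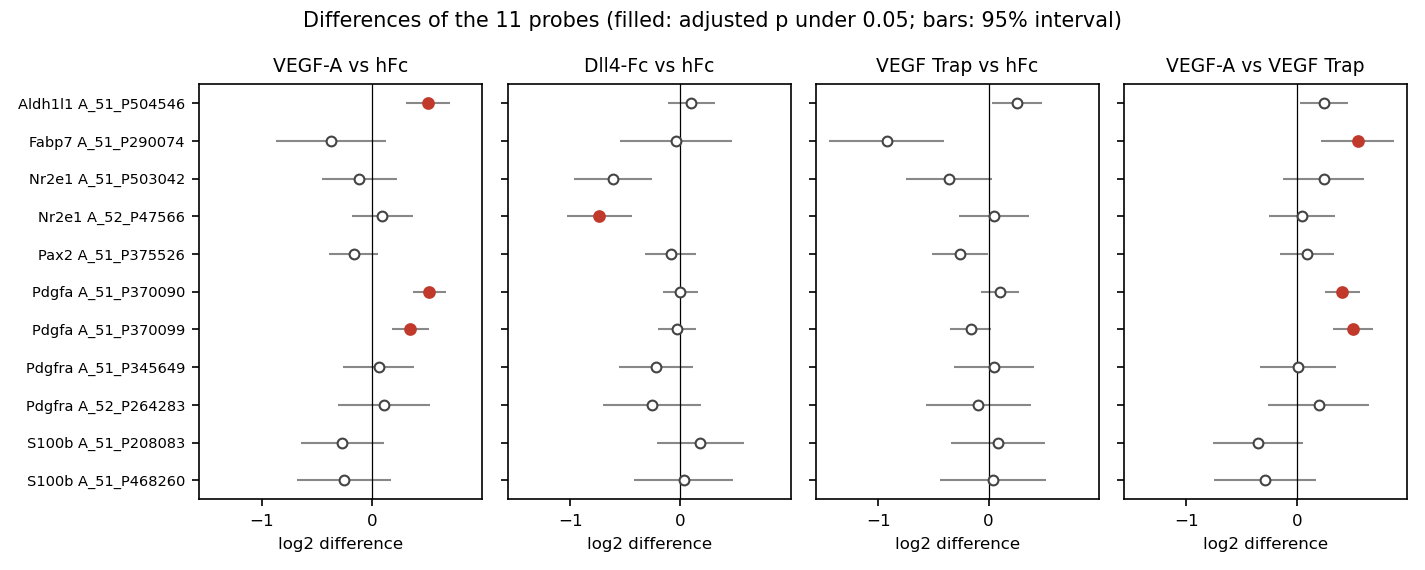
Each panel is 1 comparison, rows are the 11 probes, the horizontal axis is the log2 difference and bars are 95% intervals. Filled points, which passed the test, are both Pdgfa probes and Aldh1l1 in VEGF-A against hFc, 1 Nr2e1 probe in Dll4-Fc against hFc, and both Pdgfa probes and Fabp7 in VEGF-A against VEGF Trap. The intervals of Fabp7 against hFc are wide because 1 hFc array was left.

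Pan-astroglial genes, shared by astrocytes of many tissues, moved in both directions. Of 19 pan-astroglial genes tested against hFc, 3 rose and 3 fell after VEGF-A, beside 5.68% and 3.78% of all genes. Gfap, the intermediate filament of astrocytes and of reactive Müller glia, rose by 2.36 (SE 0.15, adjusted p = 4.45e-08), and Aqp4, a water channel, fell by 1.79 (SE 0.25, adjusted p = 0.000141). After Dll4-Fc 1 rose and 7 fell, beside 2.92% and 1.43% of all genes. Gfap rose by 1.13, and Ndrg2, a gene of mature astroglia, fell by 1.1. After VEGF Trap 0 rose and 0 fell by limma, beside 1.01% and 1.89% of all genes, with Gfap at −0.03. The median differences were −0.04 after VEGF-A, −0.31 after Dll4-Fc and 0.05 after VEGF Trap. Several of these genes are shared with Müller glia, and their part in each value was not tested.

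Genes of reactive glia were counted beside the rise of Aldh1l1. In VEGF-A against hFc 8 of 14 rose and 0 fell, beside 5.68% and 3.78% of all genes. Nes, an intermediate filament of immature and reactive glia, rose by 2.38. After Dll4-Fc 6 of 14 rose and 0 fell, beside 2.92% and 1.43%, and the complement gene C4b rose by 1.61. Of 12 Müller glia genes, 1 rose and 2 fell in VEGF-A against hFc, with a median difference of 0.05. The part of reactive glia and of Müller glia in the Aldh1l1 and S100b values was not tested. Among relatives of the members, 4 of 14 rose and 1 fell after VEGF-A, and S100a6, a calcium-binding protein of the S100 family, rose by 2.91 while S100b itself was not called. Pax8 fell by 0.65. After Dll4-Fc 0 rose and 1, S100a16, fell (−0.38).

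A list for astrocytes and vessel guidance held matrix, adhesion and signalling genes, the hypoxia factors Hif1a and Epas1, and Vegfa. Of its 9 genes tested, 4 rose and 1 fell in VEGF-A against hFc, beside 5.68% and 3.78% of all genes. Cxcl12, a chemokine, rose by 1.14 (SE 0.11, adjusted p = 5.07e-06), and the retinas' own Vegfa mRNA fell by 1.18 (SE 0.15, adjusted p = 4.95e-05). In VEGF Trap against hFc 2 rose and 0 fell, beside 1.01% and 1.89%, and Vegfa rose by 0.92 (SE 0.17, adjusted p = 0.0105). After Dll4-Fc 0 of 9 were called, where 2.92% of all genes rose and 1.43% fell, with Vegfa at −0.37 (adjusted p = 0.315). The part of each cell type in these values was not tested.

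The promoters of the members were searched for letters that bear on the treatments. RBPJ, the DNA-binding partner of Notch, has the core TGGGAA, and hypoxia-inducible factors bind around ACGTG. Both strands of the 250 bases before each start site were read, from RefSeq on GRCm38.p6, in 10 windows that cover all 7 genes. TGGGAA was found in 6 of the 10 windows, beside 21.6% of 32851 windows, and ACGTG in 0, beside 16.6%. The ends of these motifs can overlap, and no member window held both. Shown are the windows of Nr2e1 (chr10:42583591-42583840, minus strand), lower after Dll4-Fc, and of Fabp7 (chr10:57784673-57784922, plus strand), lowest after VEGF Trap. Capitals mark the match, which reads TTCCCA on the strand shown.
Nr2e1: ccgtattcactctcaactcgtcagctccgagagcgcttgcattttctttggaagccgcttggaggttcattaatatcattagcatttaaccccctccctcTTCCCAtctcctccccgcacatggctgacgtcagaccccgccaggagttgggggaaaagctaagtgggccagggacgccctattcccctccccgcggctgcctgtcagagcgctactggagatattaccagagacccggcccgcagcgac
Fabp7: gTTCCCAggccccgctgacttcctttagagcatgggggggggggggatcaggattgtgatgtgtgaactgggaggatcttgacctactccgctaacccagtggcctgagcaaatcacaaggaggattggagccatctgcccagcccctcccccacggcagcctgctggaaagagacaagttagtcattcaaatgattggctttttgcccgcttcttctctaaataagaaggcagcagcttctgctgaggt
Fabp7 was not called in Dll4-Fc against hFc (−0.04). The same core stood in the windows of Aldh1l1 and S100b, in 1 of 3 of Pax2 and in 1 of 2 of Pdgfa, genes that were not called after Dll4-Fc either. The other windows of Pax2 and Pdgfa and that of Pdgfra held no match. A match is a run of letters and not a measured binding site.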

How the data were processed

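Per the file headers, Agilent Feature Extraction 9.5.1.1 gave the intensity of both channels and a log10 LogRatio, Cy5 over Cy3, from signals that were background-subtracted, detrended and dye-normalized. Per the file headers, its flags mark outlier and dim spots. The authors deposited a matrix of natural log ratios, which followed the LogRatio at a correlation of at least 0.999 per array, with 25.1 to 27.5% of cells empty. The sources used here do not say why.

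Here −LogRatio divided by log10(2) was used as log2 of sample over reference, outlier-marked spots were left out, and spots of a probe were averaged (43537 spots, 43426 probes). The 39788 probes whose Cy3 spot stood well above background on 3 or more arrays were kept. Groups came from the labels. limma 3.58.1 (R 4.3.3, data.table version 1.17.8) fitted 4 groups over 16 arrays, with 12 residual and 2.41 prior degrees of freedom, 2-sided, with Benjamini-Hochberg adjustment at 0.05 over all kept probes in each comparison. Intervals are 95%. The number of arrays limits the precision. The method was tested on simulated data. These data held no slide effect and no effect shared by the probes of an array, so that test does not bear on such effects. Genes in lists took the kept probe with the highest mean Cy3 signal (23362 genes), named by accession, symbol or older symbol through a RefSeq table. For a list and comparison at most 2 called genes are named, those with the smallest p in each direction, and all PDGF genes. For the retinal progenitor list only the mean per array is given, since 1 gene of it, and with it the list's counts, is not reported here. Likeness was computed for the members with the widest range of group means, on at least 14 arrays. The members, lists and tests were chosen with earlier results of these data known. Alternatives covered normalization, channel, filters, outlier spots, array weights, slides and each array left out.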

Additional observations from a re-analysis of the deposited data

Results flagged for a closer look

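Of 32 sets of a probe's values within a group of 4 or 5 arrays, 4 held an array whose gap to the nearest other was wide for the range of the group, and chance gives this in about 1 of 20 sets. All 4 came from VEGF-A 3 or Dll4-Fc 4. VEGF-A 3 had 0.69 for Aldh1l1, where the next array had 0.32, and 0.52 for Pax2, where the next had 0.29. Dll4-Fc 4 had 0.74 for S100b on A_51_P208083, where the next array had 0.18, and 0.61 on A_51_P468260, where the next had −0.02. Both S100b probes showed the same array. Without Dll4-Fc 4 the difference of S100b from hFc was 0.03 and −0.14, against 0.18 and 0.03 with it. Without VEGF-A 3 the Pax2 difference from hFc was −0.22, against −0.17 with it.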

How the results depend on the processing

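Of the member calls, Pdgfa on A_51_P370090 and Aldh1l1 in VEGF-A against hFc, Nr2e1 on A_52_P47566 in Dll4-Fc against hFc, and Pdgfa on A_51_P370099 in VEGF-A against VEGF Trap passed under every setting tried. No called difference changed sign. The number of member probes called in VEGF Trap against hFc was 1 (Fabp7) with normexp and loess, with the deposited matrix, with outlier-marked spots kept and with array weights, against 0 otherwise apart from arrays left out. In Dll4-Fc against hFc it was 2 (both Nr2e1 probes) with the deposited matrix, with only probes above background on all arrays and with array weights. Over all probes, VEGF Trap against hFc gave 1046 calls, but 2503 with normexp and loess, 388 with Cy3 alone, 539 with hFc 1 and 2 averaged, 3798 with array weights and 469 with only the VEGF Trap arrays of the slide that holds 2 of them. Array weights gave 6545 calls (2963 up and 3582 down) in VEGF-A against hFc, where the unweighted fit gave 3494 (2209 up and 1285 down), 3173 in Dll4-Fc against hFc and 13955 over 4 groups. VEGF-A against VEGF Trap gave 6714 calls, 4204 within the first shared slide and 4198 within the second. With each array left out in turn, calls over all probes ranged from 2654 to 3799 in VEGF-A against hFc, 1246 to 1662 in Dll4-Fc against hFc, 259 to 1237 in VEGF Trap against hFc, 4173 to 7115 in VEGF-A against VEGF Trap and 5192 to 7441 over 4 groups, and member probes called were 3 to 3, 1 to 2, 0 to 1, 2 to 3 and 4 to 6. The cause of these shifts was not tested. Without hFc 4 Fabp7 had no hFc value. Dim signal limits Pax2 and the second Pdgfra probe.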
